A study of Homo sapiens with 4 samples.

Results

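The snoRNA and microRNA host genes are named for small RNAs that lie inside the transcripts of most of them. They were chosen by symbol from the gene table of the study, as SNHG followed by digits, as names that begin with MIR and end in HG, and GAS5. This gave 106 of 28775 genes, of which 30 were snoRNA host genes (GAS5 included) and 76 were microRNA host genes. Some of them, such as SNHG21, MIR570HG and MIR646HG, held neither a snoRNA nor a microRNA gene within their span in that table. The RNA-seq data came from HEK293T, a transformed human embryonic kidney line, in 4 libraries with 2 per genotype. The MORC2 KO libraries were bulk populations, not clones, that had received Cas9 protein with gRNA 1 (replicate 1) or gRNA 2 (replicate 2), and the target sequences of the gRNAs overlap. The methods name the electroporated cells HEK293 where the labels name HEK293T. The WT libraries (replicates 1 and 2) were independent replicates of the unedited line, and no group received another agent or allele. MORC2 is an ATPase that binds DNA and takes part in gene silencing with the HUSH complex, and the comparison asked how its loss alters the transcriptome.

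Most human snoRNAs are cut out of introns after splicing. They guide chemical modification of ribosomal RNA in the nucleolus, the box C/D class 2′-O-methylation and the box H/ACA class pseudouridylation. The spliced exons of many non-coding snoRNA hosts are polyadenylated, exported and degraded by nonsense-mediated decay, and several of these genes start with a pyrimidine tract like that of ribosomal protein genes. Host genes of microRNAs are transcribed by RNA polymerase II, and Drosha cuts the microRNA hairpin out of the nascent transcript. The libraries were made from poly-A RNA, so the values below are levels of host RNA over its exons, spliced or not. They are not levels of the mature small RNAs.

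MicroRNAs recognise their targets through the seed, bases 2 to 8 of the mature strand. The mature strands below belong to 3 of the microRNA hosts described further on, with the seed in capitals. They were taken from RefSeq on GRCh38.p14. MIR3171HG, the host gene that passed the test, carries MIR3171 in an intron, and MIR4713HG carries MIR4713 in an intron. In MIR17HG the 6 hairpins of the miR-17 to miR-92a cluster lie in an exon.
hsa-miR-3171: aGAUGUAUggaaucuguauauauc
hsa-miR-4713-5p: uUCUCCCAcuaccaggcuccca
hsa-miR-4713-3p: uGGGAUCCagacagugggagaa
hsa-miR-17-5p: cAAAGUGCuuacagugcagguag
hsa-miR-20a-5p: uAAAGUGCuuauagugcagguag
hsa-miR-18a-5p: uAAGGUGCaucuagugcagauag
hsa-miR-19a-3p: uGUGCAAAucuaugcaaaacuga
hsa-miR-19b-3p: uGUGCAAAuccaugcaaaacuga
hsa-miR-92a-3p: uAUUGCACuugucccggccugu

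In the MIR17HG cluster, hsa-miR-17-5p and hsa-miR-20a-5p shared the seed AAAGUGC. hsa-miR-19a-3p and hsa-miR-19b-3p shared the seed GUGCAAA. The seeds of hsa-miR-3171 and of both miR-4713 strands were not shared with any other strand shown.

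The start sites of the host genes were not used in the choice by symbol. The letters CTTT were searched in the 30 bases from 10 before to 20 after each RefSeq start, as a short stand-in for a pyrimidine tract. The strand searched was the coding strand, which reads like the RNA. They were found in 10 of the 21 tested snoRNA hosts with a start sequence (47.6%) and in 6 of 28 tested microRNA hosts (21.4%). The share was 15.1% of all 27305 RefSeq promoters and 14.7% of tested genes. A host gene with several starts, such as MIR99AHG, was counted if any of its windows held the letters. Among the snoRNA hosts the match lay at offsets from -9 (SNHG29) to 16 (SNHG26) relative to the start. Windows of 4 snoRNA hosts with the letters at or next to the start, and that of GAS5, which had none in its window, are shown with the match in capitals. They lie on GRCh38.p14 at chr6:85678714-85678743 (minus strand, SNHG5), chr6:31834906-31834935 (plus, SNHG32), chr16:2155339-2155368 (minus, SNHG19), chr1:28581854-28581883 (minus, SNHG12) and chr1:173869026-173869055 (minus, GAS5).
SNHG5: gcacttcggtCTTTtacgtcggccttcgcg
SNHG32: cattttagttCTTTttgcgaagtgggctcg
SNHG19: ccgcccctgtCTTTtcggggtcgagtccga
SNHG12: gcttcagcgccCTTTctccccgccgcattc
GAS5: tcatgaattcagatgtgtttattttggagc

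A match is a description of these letters and not evidence of a tract in use, and no match says only that the letters are not in this window.

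Library totals ranged from 53970043 to 64312514 read pairs on genes. MORC2 itself had 3064 and 3637 counts in MORC2 KO replicates 1 and 2 and 5131 and 4669 in WT replicates 1 and 2. Its level was 53.1 ± 2.69 CPM (counts scaled to library size with TMM factors, SD, n = 2) in MORC2 KO and 87.0 ± 1.06 CPM in WT, a log2 fold change of -0.71 with an SE of 0.06 (edgeR quasi-likelihood test, Benjamini-Hochberg adjusted p = 1.37e-04). The libraries thus followed their labels. The 7 markers of HEK293T (vimentin, keratins, neurofilaments, PAX2 and LIN28B) lay between 1.15 and 585 CPM and none of them had an adjusted p under 0.05. The 10 markers of other cell types summed to between 4.18 and 4.99 CPM per library, with COL1A2 at 0 throughout. Over all genes, 16675 passed the filter on low counts. A gene with an adjusted p under 0.05 was called. Of the tested genes, 98 (0.588%) were called higher and 5 (0.03%) lower in MORC2 KO.

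Of the 106 host genes, 58 passed the filter, which were 25 snoRNA hosts and 33 microRNA hosts. MIR3171HG was called higher and no host gene was called lower. At an unadjusted p under 0.05, 6 host genes were higher and 2 were lower, 8 of 58 against 14.3% of all tested genes. Both MORC2 KO libraries lay above both WT libraries in 20 of the 58, against 24.1% of all tested genes. Both lay below in 11 of the 58, against 23.4% of all tested genes. The plot of fold changes by gene shows the narrow spread of the snoRNA hosts and the wider spread of the microRNA hosts. In bulk RNA, a change in the number of cells that use a gene and a change in RNA per cell cannot be told apart.

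**Figure D1:**
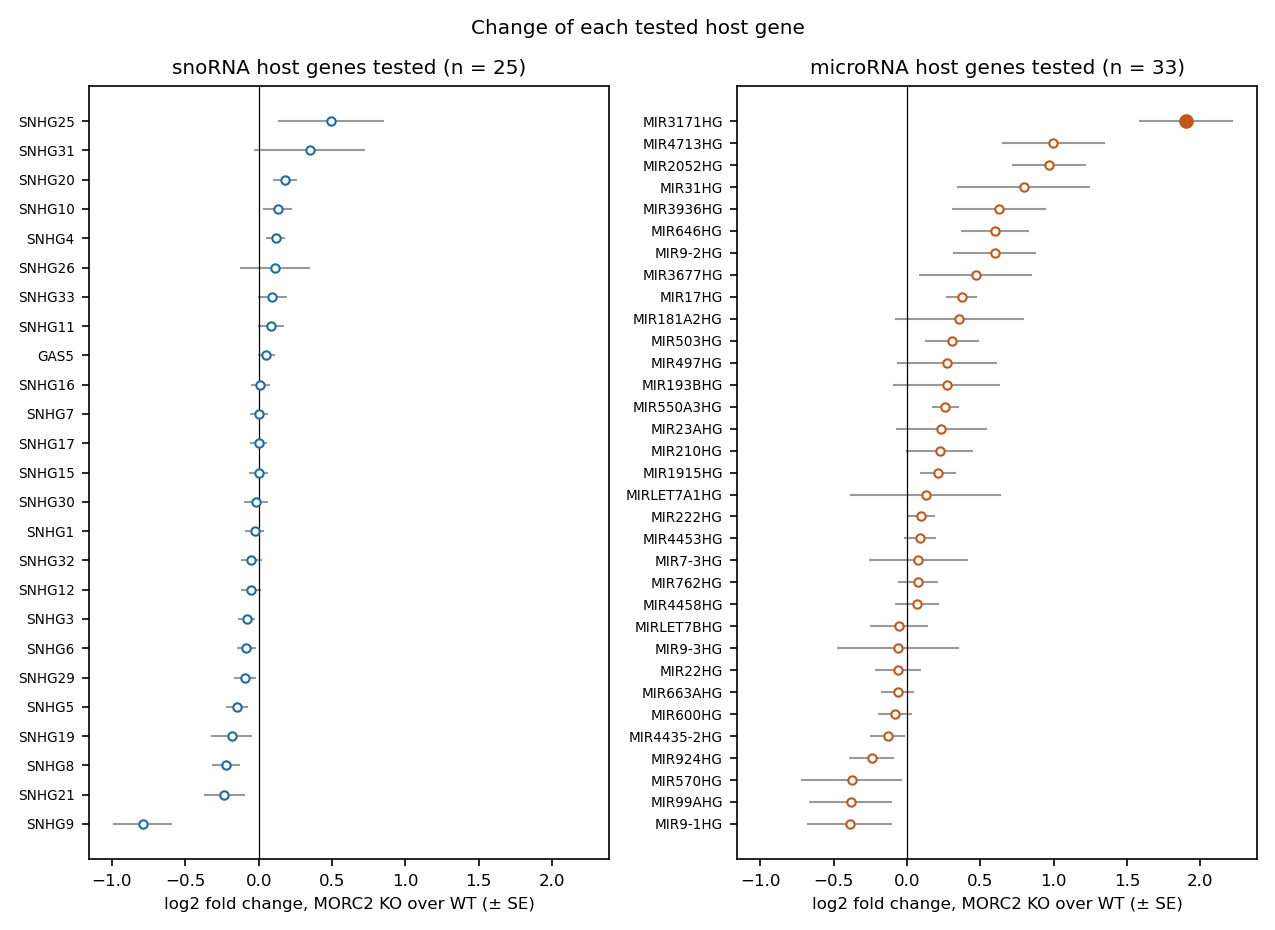
Log2 fold change (MORC2 KO over WT, x axis, ± SE from the edgeR fit) of the 25 snoRNA host genes (left) and 33 microRNA host genes (right) that were tested. The filled point is MIR3171HG, the host gene with an adjusted p under 0.05; 22 of the 25 snoRNA hosts lie within 0.25 of 0.

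The snoRNA hosts were the abundant class. Their median level was 20.6 CPM per kb of exon, against 0.678 for the tested microRNA hosts, 4.83 for all tested genes and 0.553 for all tested lncRNA genes. Per length, SNHG5, the host of SNORD50A and SNORD50B, stood first with 168 ± 15.3 CPM per kb (SD, n = 4 libraries). SNHG29 followed at 89.7 ± 6.66 and SNHG1 at 78.0 ± 3.86, and the gap between SNHG5 and SNHG29 was larger than their spread. SNHG15 (67.0 ± 3.03), GAS5 (66.3 ± 2.01) and SNHG32 (62.5 ± 3.83) came next in CPM per kb, and these neighbours did not differ beyond their spread. The length used is that of all exons, shared bases included, where read pairs were dropped. The level per kb is therefore too low for genes with shared exons, such as SNHG6, at 46.9 CPM per kb with 50.49% of its length shared, and their place in the order is uncertain.

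The difference between the genotypes was small in the snoRNA hosts. Their median log2 fold change was -0.001, with 11 of 25 positive, beside a median of 0.005 over all tested genes. It was 0.054 without MORC2 KO replicate 2 and -0.095 without MORC2 KO replicate 1, so its direction depended on the library. The absolute log2 fold change was under 0.25 in 22 of 25 (88.0%), against 81.0% of all tested genes. This share depended on level. With a mean log2 CPM of at least 2 it was 19 of 19 snoRNA hosts, against 10711 of all 11375 such genes. Under 2 it was 3 of 6 snoRNA hosts, against 2794 of all 5300 such genes. Both MORC2 KO libraries lay above both WT libraries in 4 of 25 snoRNA hosts, against 24.1% of all tested genes. They lay below in 6 of 25, against 23.4% of all tested genes, which is near that share.

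GAS5 carries 11 snoRNA genes and its spliced RNA is known as a decoy that binds the glucocorticoid receptor. It lies on CHM13v2.0, the complete human genome assembly of the counts, at chr1:173222017-173227002, minus strand, with 13 exons. It had counts of 3508 and 3705 in the MORC2 KO libraries and 3246 and 2990 in the WT libraries, which gave 58.7, 56.1, 54.5 and 56.2 CPM in that order. The libraries of the genotypes overlapped, and the log2 fold change was 0.05 with an SE of 0.06 (edgeR adjusted p = 0.713).

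SNHG1 carries 8 snoRNA genes in a row and lies at chr11:62841372-62845280. Its level was 125 and 111 CPM in the MORC2 KO libraries and 119 and 121 CPM in the WT libraries, with MORC2 KO replicate 1 highest and replicate 2 lowest. Its log2 fold change was -0.03 with an SE of 0.07 (edgeR adjusted p = 0.884). SNHG29, the host of SNORD49A and SNORD49B, had 236 and 201 CPM in the MORC2 KO libraries and 230 and 235 CPM in the WT libraries. Here too MORC2 KO replicate 2 alone was low (log2 fold change -0.09, SE 0.07, edgeR adjusted p = 0.584). The exons of SNHG29 overlap those of LRRC75A and SNORD49B over 19.09% of their length, and read pairs there were dropped by the counting.

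SNHG5 had 87.6 and 74.0 CPM in the MORC2 KO libraries and 91.9 and 87.2 CPM in the WT libraries. MORC2 KO replicate 1 lay between the WT libraries, and replicate 2 lay below both (log2 fold change -0.15, SE 0.08, edgeR adjusted p = 0.386). The value was -0.03 without MORC2 KO replicate 2 and -0.29 without MORC2 KO replicate 1 (edgeR adjusted p = 1.07e-03). SNHG32, the host of SNORD48 and SNORD52, had 56.2 and 48.6 CPM in the MORC2 KO libraries against 54.4 and 54.2 CPM in the WT libraries (-0.05 on the log2 scale, adjusted p = 0.770 in edgeR). For SNHG15, the host of SNORA9, the values were 69.5 and 62.2 CPM against 66.2 and 65.5 CPM (log2 fold change -0.001, edgeR adjusted p = 0.997). In each of these genes the libraries of the genotypes overlapped.

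SNHG9, the host of the H/ACA snoRNA SNORA78, had the lowest fitted log2 fold change of the 58. It is a short gene of 2 exons and 233 bases at chr16:1984955-1985463, 170 bases from the ribosomal protein gene RPS2. It had counts of 134 and 126 in the MORC2 KO libraries and 256 and 151 in the WT libraries. Both MORC2 KO libraries were below both WT libraries, but the WT libraries also differed from each other by 0.59 on the log2 scale. The log2 fold change was -0.79 with an SE of 0.20 (edgeR adjusted p = 0.137), which did not pass the threshold. Without WT replicate 1 the value was -0.46 (edgeR adjusted p = 0.664). It was -1.05 without WT replicate 2 (edgeR adjusted p = 1.07e-03) and -0.93 without MORC2 KO replicate 1 (edgeR adjusted p = 4.81e-03), and both of these fits called it lower. RPS2, the neighbour, had a log2 fold change of -0.14 (edgeR adjusted p = 0.427).

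SNHG8, the host of SNORA24, was the other snoRNA host with an unadjusted p under 0.05. Its counts of 1243 and 1112 in the MORC2 KO libraries and 1347 and 1124 in the WT libraries gave 20.8, 16.8, 22.6 and 21.1 CPM. Both MORC2 KO libraries were lower than both WT libraries once scaled to depth, and the log2 fold change was -0.22 with an SE of 0.10 (edgeR adjusted p = 0.325). It was -0.07 without MORC2 KO replicate 2 (edgeR adjusted p = 0.828) and -0.39 without MORC2 KO replicate 1 (edgeR adjusted p = 1.17e-03), where it was called lower. Among the snoRNA hosts with a fitted value above 0, the smallest p was that of SNHG20, with 12.8 and 13.1 CPM in the MORC2 KO libraries and 11.3 and 11.6 CPM in the WT libraries. Its log2 fold change was 0.18 with an SE of 0.08 (edgeR adjusted p = 0.356), and 22.5% of its exonic length is shared with SEC14L1. SNHG20 overlaps SCARNA16, a small Cajal body RNA gene with 13 and 11 counts in the MORC2 KO libraries and 10 and 7 in the WT libraries, and holds a microRNA gene, MIR6516.

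Several other abundant snoRNA hosts were close to level. SNHG16, a host of SNORD1 genes, had 103 and 96.3 CPM in the MORC2 KO libraries and 94.9 and 103 CPM in the WT libraries (log2 fold change 0.01, SE 0.06). SNHG17, the host of SNORA71 genes, had 54.7 and 55.5 CPM against 55.6 and 54.7 CPM, and its fitted value was within 0.001 of 0. SNHG3 had 62.6 and 58.2 CPM against 64.6 and 63.3 CPM (-0.08, SE 0.06). Both MORC2 KO libraries were low, replicate 1 by -0.031 and replicate 2 by -0.135 from the WT mean on the log2 scale. SNHG12, which carries 4 snoRNA genes, had 38.4 and 34.7 CPM against 37.4 and 38.4 CPM (-0.05, SE 0.07). SNHG4 was among the 4 snoRNA hosts with both MORC2 KO libraries high, at 34.4 and 37.5 CPM against 33.5 and 32.9 CPM (0.12, SE 0.07, edgeR adjusted p = 0.434). The others of these 4 were SNHG11, SNHG20 and SNHG25.

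The remaining snoRNA hosts had log2 fold changes between -0.23 (SNHG21) and 0.49 (SNHG25). SNHG25, the host of SNORD104, had 29 and 31 counts in the MORC2 KO libraries and 17 and 21 in the WT libraries, and its SE was 0.36. SNHG21 had 231 and 226 counts in the MORC2 KO libraries and 254 and 228 in the WT libraries, and 34.09% of its exonic length lies antisense to FSD2. SNHG6, a host of SNORD87, had 50.49% of its exonic length antisense to MCMDC2, so its counts cover the rest of its exons (log2 fold change -0.09, SE 0.06). The counting had no strand option, so at such genes a read pair within the shared bases was given to neither gene.

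**Figure D2:**
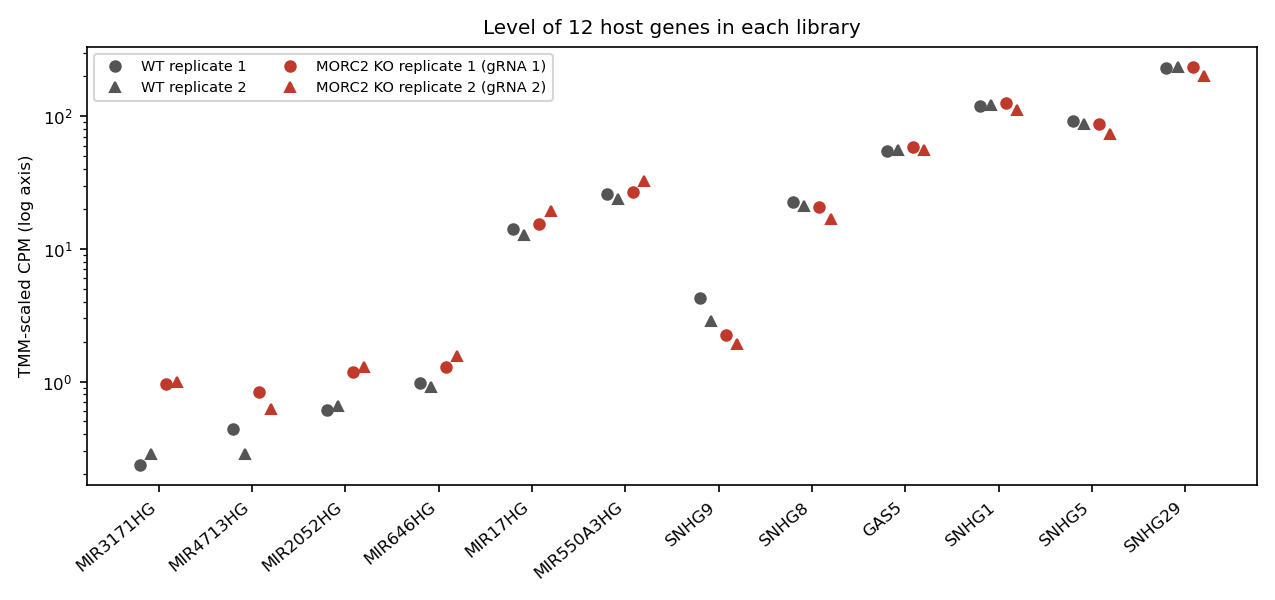
Level of 12 host genes in each library, in TMM-scaled CPM on a log axis, with WT in grey and MORC2 KO in red. MIR3171HG rises from 0.235 and 0.282 CPM in WT to 0.953 and 0.984 CPM in MORC2 KO, SNHG9 is low in both MORC2 KO libraries, and the abundant snoRNA hosts overlap apart from SNHG8.

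MIR3171HG was the host gene called higher. It is a lncRNA gene of 3 exons and 674 exonic bases that spans chr14:21519765-21871223 on the minus strand of CHM13v2.0, and it shares no exonic base with another gene. It had counts of 57 and 65 in the MORC2 KO libraries and 14 and 15 in the WT libraries. The libraries were close within each genotype, at 0.953 and 0.984 CPM against 0.235 and 0.282 CPM. The log2 fold change was 1.90 with an SE of 0.32 (edgeR adjusted p = 0.0170). It was called in each of the 4 fits that left out 1 library, with log2 fold changes of 1.77 to 2.03 and edgeR adjusted p from 2.16e-03 to 0.0387. Over the 10 other settings of the fit the log2 fold change lay between 1.78 and 1.94 and the adjusted p, in edgeR or DESeq2, between 8.43e-06 and 0.0298. The WT counts were above 11, the highest count of any host gene that the filter removed, so the gene did not enter the test through its MORC2 KO values alone.

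MIR3171, the hairpin gene inside MIR3171HG, was at 0 counts in all 4 libraries, as were 97 of the 117 microRNA genes inside the host genes. Read pairs on a hairpin within a host exon, as in MIR17HG, were dropped by the counting. A count of 0 there says nothing of the level, while MIR3171 itself lies in an intron. The surroundings of MIR3171HG were sparse. Of 5 other genes within 500 kb, 0 were tested, and the nearest tested gene on the chromosome was NOVA1, a neuronal splicing factor, 723835 bases away with a log2 fold change of -0.02 (edgeR adjusted p = 0.934).

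MIR17HG is the primary transcript of the miR-17 to miR-92a cluster, a known target of MYC that promotes proliferation. It had 927 and 1272 counts in the MORC2 KO libraries and 840 and 678 in the WT libraries, which is 15.5 and 19.3 CPM against 14.1 and 12.7 CPM. Both MORC2 KO libraries were above both WT libraries, with replicate 2 the farther. The log2 fold change was 0.37 with an SE of 0.10 (edgeR adjusted p = 0.166). Without MORC2 KO replicate 2 it was 0.21 (edgeR adjusted p = 0.363), and without MORC2 KO replicate 1 it was 0.51 (edgeR adjusted p = 2.62e-04). The 6 microRNA genes take 9.43% of the exonic length, and reads on them were assigned to neither. GPC5, the tested gene within 500 kb, had a log2 fold change of -0.54 (edgeR adjusted p = 0.392).

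MIR4713HG spans chr15:48845125-49101683 and overlaps CYP19A1, the aromatase gene, antisense over 7.66% of its exonic length. It had counts of 50 and 41 in the MORC2 KO libraries and 26 and 15 in the WT libraries. The MORC2 KO libraries were above the WT libraries, which differed from each other by 0.58 on the log2 scale. The log2 fold change was 1.00 with an SE of 0.35 (edgeR adjusted p = 0.256), short of the threshold. Its value without 1 library ranged from 0.73 (without WT replicate 2) to 1.36 (without WT replicate 1), with edgeR adjusted p from 0.209 to 0.971.

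MIR2052HG, a 6-exon gene with MIR2052 inside, had 71 and 85 counts in the MORC2 KO libraries and 36 and 35 in the WT libraries. The replicates were close in both genotypes, and the log2 fold change was 0.97 with an SE of 0.25 (edgeR adjusted p = 0.142). It was called without MORC2 KO replicate 1 (log2 fold change 1.01, edgeR adjusted p = 0.0227) and not in the other 3 fits that left out a library. The nearest tested gene was PI15, with a log2 fold change of 0.51 (edgeR adjusted p = 0.138).

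MIR550A3HG, the host of MIR550A3, had 1597 and 2167 counts in the MORC2 KO libraries and 1548 and 1256 in the WT libraries. In CPM, MORC2 KO replicate 1 was at 26.7 and replicate 2 at 32.8, and both WT libraries were below these. The log2 fold change was 0.26 with an SE of 0.09 (edgeR adjusted p = 0.255). It fell to 0.11 without MORC2 KO replicate 2 (edgeR adjusted p = 0.679) and reached 0.39 without MORC2 KO replicate 1 (edgeR adjusted p = 6.14e-04).

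MIR646HG had 77 and 103 counts in the MORC2 KO libraries and 58 and 48 in the WT libraries (log2 fold change 0.60, SE 0.23, edgeR adjusted p = 0.283). The genotypes did not overlap. MIR31HG, a lncRNA gene near the CDKN2A locus and host of MIR31, had 15 and 28 counts in the MORC2 KO libraries and 12 and 10 in the WT libraries (log2 fold change 0.80, SE 0.45, edgeR adjusted p = 0.440). Its value rested on MORC2 KO replicate 2, since it was 0.36 without that library and 1.10 without replicate 1. KLHL9, a tested gene 118866 bases from MIR31HG, was called higher with a log2 fold change of 0.28 (edgeR adjusted p = 0.0482), 1 of 8 tested genes within 500 kb.

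The 3 microRNA hosts with the lowest fitted values had few counts. MIR9-1HG, a host of the neural microRNA miR-9, had 32 and 49 counts in the MORC2 KO libraries and 54 and 41 in the WT libraries (log2 fold change -0.39, SE 0.29). MIR99AHG, the host of MIR99A, MIRLET7C and MIR125B2, had 37 and 49 against 46 and 54 (-0.38, SE 0.28). MIR570HG had 21 and 28 against 32 and 25 (-0.38, SE 0.34), and 64.48% of its exonic length is shared with SDHAP2. In CPM both MORC2 KO libraries lay below both WT libraries for each of these genes, and the edgeR adjusted p was 0.552, 0.547 and 0.635. Leaving out 1 library moved MIR9-1HG between -0.65 (without MORC2 KO replicate 2) and -0.20 (without MORC2 KO replicate 1). MIR99AHG then lay between -0.57 (without WT replicate 1) and -0.18 (without WT replicate 2), and MIR570HG between -0.52 (without MORC2 KO replicate 2) and -0.27 (without MORC2 KO replicate 1).

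A few other microRNA hosts had separated genotypes without passing the threshold. MIR9-2HG, like MIR9-1HG a host of miR-9, had 53 and 86 counts in the MORC2 KO libraries and 48 and 34 in the WT libraries (log2 fold change 0.60, SE 0.28, edgeR adjusted p = 0.359). MIR9-3HG, the third host of miR-9, is given beside it and had overlapping genotypes, with 18 and 34 counts against 18 and 30. Its log2 fold change was -0.06 (SE 0.42), and its WT libraries differed by 0.83 on the log2 scale. The hosts of the same microRNA thus had fitted values of both signs, none of them past the threshold. MIR3936HG had 39 and 74 counts against 35 and 30 (0.63, SE 0.32, edgeR adjusted p = 0.389), with MORC2 KO replicate 2 apart from the rest, and 17.09% of its exonic length lies antisense to SLC22A4 or SLC22A5. MIR503HG, the host of MIR503, had 2.07 and 2.47 CPM against 1.76 and 1.92 CPM (0.31, SE 0.18, edgeR adjusted p = 0.457). MIR924HG was lower in replicate 2 of MORC2 KO, with 3.95 and 3.01 CPM against 4.10 CPM in both WT libraries (-0.24, SE 0.16, edgeR adjusted p = 0.492).

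The other microRNA hosts include genes with well-known small RNAs. MIR222HG, the host of MIR221 and MIR222, had 10.1 and 10.7 CPM in the MORC2 KO libraries and 10.1 and 9.24 CPM in the WT libraries (log2 fold change 0.10, SE 0.10). MIR210HG, whose microRNA is induced by hypoxia, had 1.97 and 3.16 CPM against 2.50 and 1.90 CPM (0.22, SE 0.23), so the genotypes overlapped. MIR22HG had 3.14 and 2.63 CPM against 3.09 and 2.91 CPM (-0.06, SE 0.16). For MIRLET7BHG, a host of let-7, the family that LIN28B blocks, the values were 1.42 and 1.63 CPM against 1.61 and 1.56 CPM (-0.05, SE 0.20).

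As a class, the tested microRNA hosts had a median log2 fold change of 0.21, with 23 of 33 positive. The median over all tested genes was 0.005, and over the 1676 tested lncRNA genes it was 0.19, with 1263 positive. The share positive was 69.7% of the microRNA hosts and 75.4% of the lncRNA genes. Both MORC2 KO libraries lay above both WT libraries in 16 of 33 microRNA hosts (48.5%), in 35.5% of lncRNA genes and in 24.1% of all tested genes. They lay below both WT libraries in 5 of 33 microRNA hosts (15.2%), in 8.23% of lncRNA genes and in 23.4% of all tested genes. The microRNA hosts were low in level, and the fold change of all genes varied with level. Among genes with a mean log2 CPM under 2, the median was 0.25 for 24 microRNA hosts, 0.21 for 1365 lncRNA genes and 0.11 for all 5300 genes. With offsets that remove the trend on abundance, the median of the 33 microRNA hosts was 0.10. The plot against level shows both classes on the cloud of all genes.

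**Figure D3:**
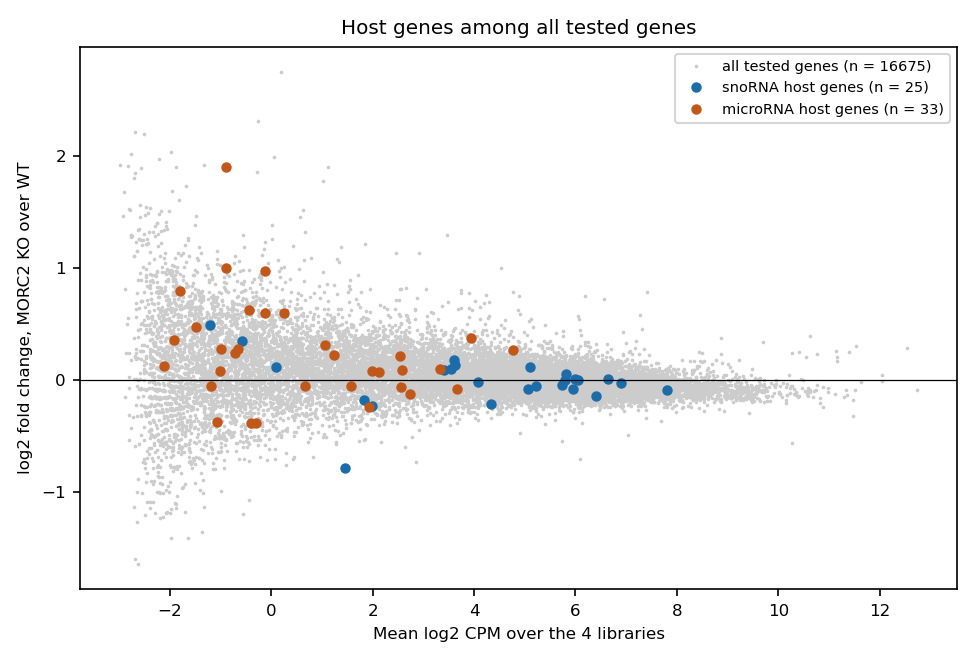
Log2 fold change (MORC2 KO over WT, y axis) against the mean log2 CPM over the 4 libraries (x axis) for all 16675 tested genes (grey), 25 snoRNA hosts (blue) and 33 microRNA hosts (orange). The microRNA hosts sit mostly at low levels, where the cloud is wide, and MIR3171HG lies at 1.90.

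The MORC2 KO libraries differed from each other in both classes, in opposite directions. MORC2 KO replicate 1 was above replicate 2 in 20 of 25 snoRNA hosts (80.0%) and in 8 of 33 microRNA hosts (24.2%), against 49.2% of all tested genes and 32.5% of lncRNA genes. Relative to each gene's own mean over the 4 libraries, the median of the snoRNA hosts was 0.05 in MORC2 KO replicate 1, -0.07 in replicate 2 and 0.01 in both WT libraries on the log2 scale. For the microRNA hosts it was 0.01 and 0.22 in MORC2 KO replicates 1 and 2, and -0.06 and -0.10 in WT replicates 1 and 2. The summed level of the snoRNA hosts was 1124.6 and 1018.6 CPM in the MORC2 KO libraries and 1100.0 and 1103.1 CPM in the WT libraries. That of the microRNA hosts was 120.6 and 136.2 CPM in the MORC2 KO libraries and 120.2 and 111.2 CPM in the WT libraries. Since each gRNA has 1 library, the gRNA and the library cannot be told apart.

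The counts of calls depended on the library left out. Without MORC2 KO replicate 1, 5 host genes were called higher (MIR17HG, MIR2052HG, MIR3171HG, MIR3936HG and MIR550A3HG) and 6 lower (MIR924HG, SNHG5, SNHG8, SNHG9, SNHG29 and SNHG32). In that fit 1397 genes of all kinds were called higher and 2117 lower, and the lone MORC2 KO library was assumed to vary like the WT libraries. Without MORC2 KO replicate 2, MIR3171HG was again the host gene called, and SNHG29 was at 0.02 and SNHG32 at 0.05 on the log2 scale.

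The snoRNA genes inside the hosts have table entries of their own. The host genes hold 139 snoRNA genes, small Cajal body RNA genes not counted, 83 of them inside SNHG14 of the Prader-Willi region, which had 1 count in 1 library. Of 55 inside tested hosts, 34 passed the filter, in 13 hosts, and 33 of these are intronic. None was called by edgeR (smallest adjusted p = 0.318) and 1 had an unadjusted p under 0.05, SNORD74 in GAS5. Their median log2 fold change was -0.08 with 11 of 34 positive, between -0.79 for SNORA44 in SNHG12 and 0.72 for SNORD74. Of all tested genes, 51.5% were positive and 14.3% had an unadjusted p under 0.05. For tested genes with a mean log2 CPM under 2 the shares were 63.9% and 8.66%.

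In GAS5 the read pairs on its 11 snoRNA genes summed to 640 and 609 in the MORC2 KO libraries and 609 and 496 in the WT libraries. Scaled to depth these were 10.7 and 9.22 CPM against 10.2 and 9.32 CPM, and the genotypes overlapped. SNORD74 had 62 and 48 counts in the MORC2 KO libraries and 35 and 25 in the WT libraries, with the MORC2 KO libraries higher (SE of 0.31). In SNHG1 the sums over 8 snoRNA genes were 414 and 500 in the MORC2 KO libraries and 457 and 395 in the WT libraries, 6.92 and 7.57 CPM against 7.68 and 7.42 CPM. The H/ACA snoRNA genes SNORA73A and SNORA73B in SNHG3 together had 380, 378, 382 and 378 counts in MORC2 KO replicates 1 and 2 and WT replicates 1 and 2. Poly-A selection does not capture mature snoRNAs, so such read pairs can come from unspliced or partly processed host RNA, which was not tested.

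One microRNA gene inside the hosts was tested. MIR663A, in an intron of MIR663AHG, had 147 and 168 counts in the MORC2 KO libraries and 151 and 131 in the WT libraries, with a log2 fold change of 0.001 and an SE of 0.16. Of the 76 microRNA hosts, 71 hold a microRNA gene of their own name in the table.

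Host genes that were not tested numbered 48, which were 5 snoRNA hosts and 43 microRNA hosts. Of these, 24 were at 0 in every library (2 and 22), which allows a level of up to 0.0556 CPM in the shallowest library, counting error only. The remaining 24 had at most 11 counts in any library. They include MIR302CHG, the host of a cluster active in pluripotent cells, with 9 and 6 counts in the MORC2 KO libraries and 7 and 6 in the WT libraries, and MIR155HG, active in lymphocytes, with 6 and 6 against 4 and 2. SNHG28 had 7 and 11 counts against 8 and 6. Of the exonic length, 52.71% in MIR302CHG and 53.17% in SNHG28 is shared with other genes, where read pairs were dropped. Their counts therefore cover the rest of their exons. A difference between the genotypes in such genes was not detectable at these counts.

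The proteins that assemble and use the hosted RNAs were measured in the same libraries. Of 19 genes of snoRNP assembly, 19 were tested and 0 were called in either direction by edgeR. At an unadjusted p under 0.05 there were 5, all lower, against 14.3% of all tested genes in either direction. The median log2 fold change of the 19 was -0.10 with 0 of 19 positive. DKC1, the pseudouridine synthase of H/ACA snoRNPs, had 21141 and 21114 counts in the MORC2 KO libraries and 24144 and 21834 in the WT libraries (log2 fold change -0.28, SE 0.07, edgeR adjusted p = 0.108). GAR1, another H/ACA protein, stood at -0.19 with an SE of 0.06 (edgeR adjusted p = 0.205). The median over all 11375 tested genes with a mean log2 CPM of at least 2 was -0.01, with 5204 positive. Those genes had a median level of 5.39, while the snoRNP genes lay between 4.56 (NUFIP1) and 9.11 (NOLC1), and the fold change varied with level. The lists of nonsense-mediated decay factors and protein-coding snoRNA hosts below also had medians under 0. Whether the snoRNP genes differ from genes of like level was not tested.

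Among 20 factors of nonsense-mediated decay, the pathway that degrades many spliced snoRNA hosts, 0 were called by edgeR. At an unadjusted p under 0.05 there were 3, all lower, against 14.3% of all tested genes in either direction. The median of the 20 was -0.07 with 4 of 20 positive. MAGOH, a core protein of the exon junction complex, stood at -0.23 (SE 0.07, edgeR adjusted p = 0.181). Among 20 genes of microRNA processing and silencing, 0 were called and 1 had an unadjusted p under 0.05, with a median of -0.01. That gene was AGO4, an Argonaute protein, with 3052 and 3870 counts in the MORC2 KO libraries and 2831 and 2376 in the WT libraries (log2 fold change 0.25, SE 0.07, edgeR adjusted p = 0.179). RAN, the GTPase that drives export of microRNA precursors, stood at -0.14 (edgeR adjusted p = 0.415).

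Other genes that carry small RNAs were measured as well. Of 4 non-coding snoRNA hosts with other names, 3 were tested and 0 were called, with DANCR at -0.20 (SE 0.07) and ZFAS1 at -0.11 (SE 0.07) on the log2 scale. Of 44 protein-coding snoRNA hosts, mostly ribosomal proteins and translation factors, 43 were tested and 0 were called. An unadjusted p under 0.05 was found in 6, all of them lower. The share with such a p was 14.3% of all tested genes. The median of these hosts was -0.10 with 8 of 43 positive, against 51.5% of all tested genes. Their list shares DKC1 and NOP56 with that of snoRNP assembly. NCL, the nucleolar protein nucleolin, stood at -0.24 (SE 0.07, edgeR adjusted p = 0.183). Of 38 protein-coding microRNA hosts, 31 were tested, 0 were called and 3 had an unadjusted p under 0.05, with a median of -0.01. CTDSP1, a phosphatase gene that hosts a miR-26 gene, stood at 0.22 (SE 0.06, edgeR adjusted p = 0.166), and CLCN5, a chloride transporter gene, at 0.17 (SE 0.07, edgeR adjusted p = 0.328).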

How the data were processed

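RNA-seq libraries were from poly-A RNA of 2 MORC2 KO and 2 WT samples of HEK293T, grouped by the sample labels. Reads were mapped by the authors to the CHM13v2.0 assembly and counted as pairs on RefSeq genes with featureCounts 2.0.6. The deposited values are raw counts of read pairs per gene, not normalised. The recorded options counted multi-mapping reads, had no strand option, and dropped pairs that overlap more than 1 gene. Symbols were matched by Entrez identifier to RefSeq GRCh38.p14 (28763 of 28775), and coordinates are CHM13v2.0 unless GRCh38.p14 is named.

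Genes were filtered with filterByExpr (16675 left), scaled with TMM factors (0.986 to 1.03) and tested on genotype with the quasi-likelihood F-test of edgeR 4.0.16 in R 4.3.3, in its legacy form, with Benjamini-Hochberg adjustment over all tested genes at 0.05. The SE was derived from each log2 fold change and its F statistic. CPM values are TMM-scaled, and log2 CPM used a prior count of 2. A count of 0 was taken to allow up to 3 counts. No test over the members as a set was made. DESeq2 1.42.0, RLE factors, library size alone, abundance offsets (limma 3.58.1, loess span 0.3), other filters, a threshold of 0.10, robust dispersions, the newer edgeR form, a block on replicate number and leaving out each library were tried. The code was checked on simulated counts.

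Replicates differed by more than counting noise (chi-square per degree of freedom 16.8 for MORC2 KO and 6.56 for WT), and each was 1 sample. No source says from which cultures the WT replicates came, so p-values measure the spread between these samples. The members and gene lists were chosen with earlier results of these data known. Named genes were MORC2, GAS5, MIR3171HG and MIR4713HG, called members, the 8 uncalled members with the smallest p, the 6 highest per kb, the 4 highest and 4 lowest by fold change, and the 2 genes with the smallest p of each list. One gene that this rule names is not reported here. SNHG3, SNHG4, SNHG6, SNHG11, SNHG12, SNHG16, SNHG17, SNHG21, SNHG25, MIR9-2HG, MIR9-3HG, MIR22HG, MIR210HG, MIR222HG, MIR503HG, MIR924HG, MIR3936HG, MIRLET7BHG, the untested genes and the neighbouring genes were named in addition, after their values were seen.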

Additional observations from a re-analysis of the deposited data

How the results depend on the processing

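MIR3171HG was called higher in the main analysis and in each of the 10 alternative settings and 4 fits that left out a library. The medians of both classes depended on the setting. Their values are given above for the abundance offsets (microRNA hosts) and for leaving out each MORC2 KO library (snoRNA hosts). Host genes called numbered 4 higher and 1 lower with no filter on low counts (463 and 182 over all genes). With the replicate block they numbered 2 higher (MIR17HG and MIR3171HG) and 1 lower (SNHG9), and 237 and 42 over all genes. Same-numbered libraries had a correlation of deviations of -0.124. With 2 libraries per genotype the crossed value is its negative, so it cannot show whether the numbers paired the samples. The crossed pairing, added after seeing the data, gave 5 higher and 3 lower host genes (903 and 809 over all genes). Over all genes, 17 were called lower in DESeq2 and 15 at a threshold of 0.10. Leaving out 1 library gave 1 to 5 host genes higher and 0 to 6 lower, and 88 to 1397 and 9 to 2117 over all genes, with most calls without MORC2 KO replicate 1. Uncalled values near 0 changed sign. SNHG1 was at 0.011 with library size alone and 0.012 with abundance offsets, and SNHG15 at 0.038 and 0.02. SNHG15 was at 0.001 with no filter and with at least 10 counts in every sample. Without 1 library, SNHG1 reached from -0.128 to 0.057, SNHG15 from -0.095 to 0.079, SNHG29 from -0.227 to 0.021 and SNHG32 from -0.172 to 0.051. The cause was not tested. With 2 libraries per genotype, both the spread between replicates and, for genes with few counts, the depth limit what could be called.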
